A study of Mus musculus with 6 samples.

Results

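The class I PI3 kinases of bone marrow-derived mast cells (BMMCs) were examined in 9 subunit genes out of 35297 genes named in the tables. The 4 catalytic subunits are Pik3ca (p110α), Pik3cb (p110β), Pik3cd (p110δ) and Pik3cg (p110γ). The 5 regulatory subunits are Pik3r1 (p85α and its shorter forms), Pik3r2 (p85β), Pik3r3 (p55γ), Pik3r5 (p101) and Pik3r6 (p84, also called p87). The genes were taken by name, as a complete family, and the family itself was chosen by the measured strain difference of Pik3r6 and Pik3r5. The strain difference in these 9 genes is therefore a description. Calls from the fit over all genes are counted below for orientation, and as Pik3r5 and Pik3r6 guided the choice, nothing is read from their counts. In all 9 genes, 59 transcripts of 129698 in the tables were found, and 43 of them held a read in at least 1 library.

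The libraries S9, S10 and S11 came from wild type BALB/c mice and the libraries S12, S13 and S14 from wild type C57BL/6 mice, 3 biological replicates per strain, each sequenced after 20 days of culture. The mice were naive, and bone marrow cells of both strains were grown in one medium that held stem cell factor, TGF-β1, IL-9 and IL-3. No stimulus such as IgE or IL-33 was named for these libraries, so the values describe cells grown in vitro, and the strain and its own set of cultures cannot be told apart. Each library is the RNA of a whole culture, in which fewer cells of a type and less RNA per cell cannot be told apart.

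Between 28273365 and 37100869 reads per library fell on genes. The mast cell genes Kit (receptor of stem cell factor), Fcer1a (IgE-binding chain of the high-affinity IgE receptor) and Cpa3 (a granule carboxypeptidase) were abundant in both strains, with mean TPM in BALB/c of 499.7, 5550.0 and 12693, respectively. The summed TPM of 10 mast cell markers was 35070 to 39010 in BALB/c and 34610 to 37870 in C57BL/6. Of these 10, 6 were higher in C57BL/6, among them Tpsb2 and Hdc over 2-fold, and Cma1 and Mitf were higher in BALB/c, where the shares over all genes were 27% and 25.9%. The small rises among them depended on the setting, and Kit passed the threshold in 7 of 17 alternatives. Some markers of other cells were higher in C57BL/6. The sum of 8 basophil markers was 515 to 530 TPM in BALB/c and 639.9 to 668 TPM in C57BL/6, and 4 of the 8 were over 2-fold higher in C57BL/6, as were 7.73% of all genes. Past the threshold at any size, 5 of the 8 were higher in C57BL/6 and 1 was higher in BALB/c, beside 27% and 25.9% of all genes, and 2 did not pass. The sum of 8 macrophage markers was 0.937 to 1.77 TPM in BALB/c and 8.34 to 9.72 TPM in C57BL/6, through Adgre1 and Cd68, while the other 6 had at most 2 reads in any library. No library held more than 4 reads of a neutrophil marker or 6 reads of a B cell marker. The sum of 6 megakaryocyte and platelet markers was 648.5 to 661.6 TPM in BALB/c and 713.6 to 790.4 TPM in C57BL/6. It came from Itga2b and Gp1ba, of which 1 was higher in C57BL/6 and 1 was higher in BALB/c, while Gp9 and Ppbp were at 0 reads in every library. The sum of 7 T or NK cell markers was 5.30 to 6.30 TPM in BALB/c and 4.23 to 5.04 TPM in C57BL/6, through Ncr1, while Cd3e, Cd3d and Cd3g were at 0 reads. The part of these cells in the strain differences below was not tested.

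Class I PI3 kinases turn the membrane lipid PIP2 into PIP3, which recruits kinases such as AKT, PDK1 and BTK. Class IA enzymes pair p110α, p110β or p110δ with a p85-type subunit that binds phosphotyrosine on receptors and adaptors. The class IB enzyme pairs p110γ with p101 or p84, which link it to the βγ subunits of G proteins and to Ras. In mast cells p110δ is known for signalling below KIT and the IgE receptor, and p110γ for amplifying degranulation through adenosine and other G protein-coupled receptors, with p84 as its usual partner in this cell type.

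Of these genes, only the class IB regulatory subunits are neighbours on a chromosome. In GRCm39, Pik3r5 occupies chr11:68322939-68388675 and Pik3r6 chr11:68393845-68443524, both on the forward strand, with 5169 bases between them. Their partner Pik3cg lies at chr12:32223472-32258659 on the reverse strand. The others are Pik3cd at chr4:149732411-149787028 (reverse), Pik3r3 at chr4:116078393-116160255 (forward), Pik3ca at chr3:32451820-32522635 (forward), Pik3cb at chr9:98918704-99022674 (reverse), Pik3r1 at chr13:101817071-101904725 (reverse) and Pik3r2 at chr8:71220774-71229412 (reverse). All 9 are annotated as protein-coding genes, and the values below sum their whole spliced transcripts. Of all 31-base words in their annotated transcripts, 0% were found in another gene for Pik3r6, Pik3cd and Pik3r2. This share was 4.89% for Pik3cb, mostly with Gm12992, and 21.4% for Pik3r3, all with the overlapping gene Gm49337, so the reads of Pik3r3 are uncertain.

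Promoter sequence was read for the class IB genes, since the paired regulatory genes moved together, and for Pik3cd, the most abundant subunit. The windows are RefSeq entries of GRCm38.p6, from 250 bases before to 50 bases after a start site, and each was found once in GRCm39, whose coordinates are given. RefSeq windows were matched for 8 of the 9 genes, 14 windows in all, and Pik3r6 was not matched. Capitals mark a match, on either strand, to a GATA motif, AGATAA, or to CATGTG, one of the E-box forms bound by MITF. The Pik3r5 window (chr11:68322701-68323000, forward), the Pik3cg window with the more upstream start (chr12:32258609-32258908, reverse) and the Pik3cd window with the most upstream start (chr4:149783116-149783415, reverse) read, 5′ to 3′ on the strand of the gene, as follows.
Pik3r5: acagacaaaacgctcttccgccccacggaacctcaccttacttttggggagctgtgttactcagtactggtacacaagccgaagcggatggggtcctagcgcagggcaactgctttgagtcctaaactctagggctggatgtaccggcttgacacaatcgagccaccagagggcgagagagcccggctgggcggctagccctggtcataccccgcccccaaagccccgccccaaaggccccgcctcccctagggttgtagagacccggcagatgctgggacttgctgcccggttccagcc
Pik3cg: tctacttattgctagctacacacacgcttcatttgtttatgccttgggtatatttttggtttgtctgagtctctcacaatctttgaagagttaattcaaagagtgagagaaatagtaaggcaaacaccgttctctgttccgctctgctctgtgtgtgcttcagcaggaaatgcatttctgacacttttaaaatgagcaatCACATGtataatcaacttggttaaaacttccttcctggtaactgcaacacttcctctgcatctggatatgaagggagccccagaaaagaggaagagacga
Pik3cd: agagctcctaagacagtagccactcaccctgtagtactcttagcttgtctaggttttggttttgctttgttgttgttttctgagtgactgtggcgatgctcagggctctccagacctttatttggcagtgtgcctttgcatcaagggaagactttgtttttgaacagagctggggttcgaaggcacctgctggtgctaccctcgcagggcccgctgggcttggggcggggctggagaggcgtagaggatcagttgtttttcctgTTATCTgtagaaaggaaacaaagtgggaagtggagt

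The E-box of Pik3cg begins at position -50 from this start and, in an overlapping window of a second start, at position -239. The GATA match of Pik3cd begins at position 14, and another Pik3cd window held CATGTG at position -95. Of 32851 promoter windows of the same length, 11.2% held AGATAA and 14.2% held CATGTG on either strand. CACGTG, another E-box form bound by MITF and found in 7.15% of all windows, occurred in none of the 14 windows. TGTGGT, a RUNX motif in 16.8%, also occurred in none of the 14, and CCGGAA, an ETS motif in 14.9%, occurred in those of Pik3ca and Pik3r2. None of these letters stood in the Pik3r5 window.

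To compare levels between subunits, TPM was used, in which reads are divided by transcript length and each library is brought to a common sum. In BALB/c BMMCs the order was Pik3cd, Pik3r6, Pik3cg, Pik3r1, Pik3ca, Pik3cb, Pik3r2, Pik3r5 and Pik3r3. In C57BL/6 BMMCs it was Pik3cd, Pik3cg, Pik3r1, Pik3cb, Pik3ca, Pik3r2, Pik3r6, Pik3r3 and Pik3r5. In neither strain did the ranges of neighbours in this order overlap over 3 libraries. Pik3r6 thus moved from the second place to the seventh, while p110δ held the first in both strains. The same order was found with scaled reads per kilobase, which used the effective transcript lengths that TPM also rests on.

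**Figure D1:**
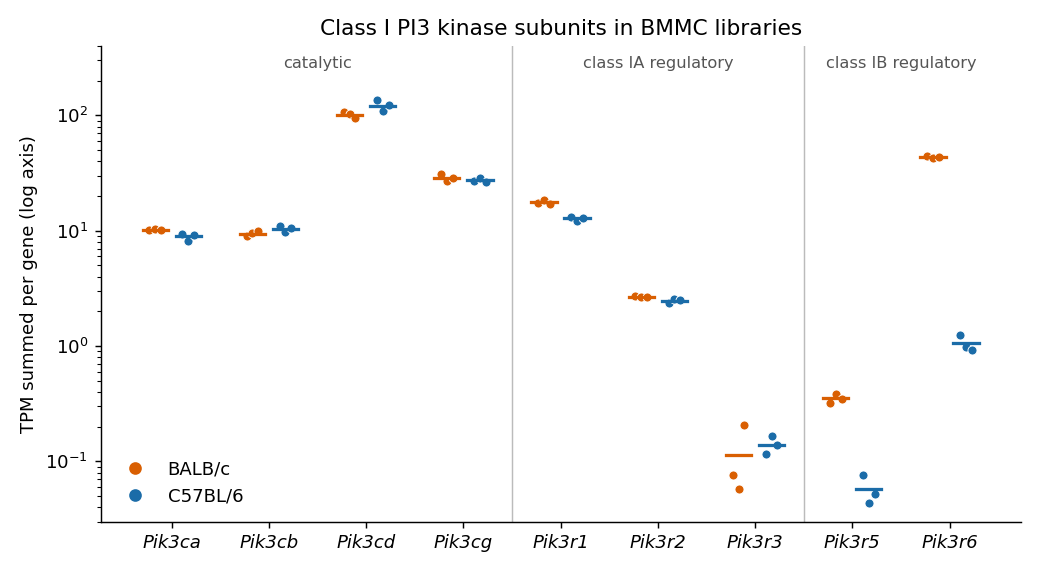
TPM per library (log axis) of the 9 class I PI3 kinase subunits in BALB/c (orange) and C57BL/6 (blue) BMMCs, where each point is a library and each bar the mean of 3. Pik3r6 falls from 43.7 to 1.05 TPM between the strains while its partner Pik3cg stays between 26.6 and 31.1 TPM in all 6 libraries.

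Pik3r6, the p84 adaptor of p110γ, was abundant in BALB/c BMMCs and near the bottom of the family in C57BL/6 BMMCs. Its estimated reads were 3022 in S9, 2762 in S10 and 3572 in S11, against 96 in S12, 67 in S13 and 79 in S14. Its TPM was 44.7, 43.1 and 43.5 in BALB/c against 1.25, 0.988 and 0.917 in C57BL/6. The strains were far apart, and the replicates of each strain lay close together. The CPM, that is counts scaled by TMM to a common library size, averaged 94.2 ± 1.33 (SD, n = 3) in BALB/c and 2.57 ± 0.395 in C57BL/6. In the edgeR fit over all genes the log2 fold change (here and below, C57BL/6 over BALB/c) was -5.20 ± 0.08 (SE), that is 36.7-fold higher in BALB/c. Only 58 of 12461 genes tested had a more negative log2 fold change. By TPM, Pik3r6 stood at percentile 80.0 of the tested genes in BALB/c and at percentile 16.7 in C57BL/6.

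Pik3r5, which encodes p101, the other adaptor of p110γ, was barely detected and was also lower in C57BL/6. It had 30, 34 and 39 reads in BALB/c against 8, 4 and 6 in C57BL/6, so its level rests on few reads. TPM was 0.322, 0.386 and 0.344 in BALB/c against 0.0763, 0.0439 and 0.0520 in C57BL/6. The ranges did not overlap, and the log2 fold change was -2.42 ± 0.30 (SE), or 5.37-fold higher in BALB/c. Pik3r5 passed the filter on low counts through its BALB/c libraries only. Pik3r6 made up 99.2% ± 0.0862 (SD, n = 3) of the summed TPM of both adaptors in BALB/c and 94.9% ± 0.773 in C57BL/6, so p84 was the more abundant adaptor transcript in each strain.

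Pik3cg, the p110γ catalytic subunit that both adaptors bind, differed little when all its transcripts were summed. Its reads were 3853, 3285 and 4365 in BALB/c against 4048, 3725 and 4547 in C57BL/6. Its TPM was 31.1, 26.9 and 28.8 in BALB/c against 26.7, 28.6 and 26.6 in C57BL/6, and these ranges overlapped. On the CPM scale the values were 121.0, 110.2 and 116.1 against 126.7, 137.7 and 128.5, with C57BL/6 above. The log2 fold change was 0.18 ± 0.05 (SE) in the fit of counts and -0.08 on the log2(TPM + 1) scale, so its direction depended on the scale. The median over all genes lay at -0.01 in the fit of counts and at -0.15 on the log2(TPM + 1) scale. On the CPM scale no other p110 gene but Pik3ca moved less than Pik3cg.

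The balance of class IB transcripts differed accordingly. The summed TPM of Pik3r5 and Pik3r6 was 45.0, 43.5 and 43.8 in BALB/c against 1.33, 1.03 and 0.969 in C57BL/6. Divided by the TPM of Pik3cg in the same library, this gave 1.45, 1.62 and 1.52 in BALB/c against 0.0497, 0.0361 and 0.0364 in C57BL/6. Adaptor transcripts thus exceeded those of p110γ in every BALB/c library, and p110γ transcripts exceeded those of the adaptors by 20.1 to 27.7 times in the C57BL/6 libraries. With curated NM transcripts alone, an alternative chosen after seeing the data, the ratio of adaptors to p110γ was 6.44, 4.32 and 5.56 in BALB/c against 0.107, 0.0986 and 0.00768 in C57BL/6. The strains stayed far apart, and the size of the ratio depended on which Pik3cg models were counted. These are ratios of transcripts, and protein was not measured here.

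Pik3cd, the p110δ subunit, was the most abundant of the family and higher in C57BL/6. Its TPM was 106.9, 102.7 and 94.7 in BALB/c against 134.9, 108.1 and 122.0 in C57BL/6. All C57BL/6 libraries lay above all BALB/c libraries, S13 by little. The log2 fold change was 0.45 ± 0.06 (SE), or 1.37-fold. Pik3cd gave 67.6% ± 1.45 (SD, n = 3) of the summed catalytic TPM in BALB/c and 72.1% ± 2.14 in C57BL/6, and the share of Pik3cg was 19.3% ± 1.14 and 16.3% ± 1.96. With NM transcripts alone, added after seeing the data, the share of Pik3cg was 6.32% ± 1.35 and 10.2% ± 0.874, so its direction between strains turned.

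The broadly expressed catalytic subunits were lower and closer between strains. Pik3ca (p110α) had a TPM of 10.1, 10.4 and 10.1 in BALB/c against 9.32, 8.20 and 9.26 in C57BL/6. Its log2 fold change was -0.01 ± 0.05 (SE) and did not pass the threshold, although the TPM of all C57BL/6 libraries was below that of BALB/c. Pik3cb (p110β) had a TPM of 8.91, 9.48 and 9.96 in BALB/c against 11.02, 9.76 and 10.5 in C57BL/6. Here the TPM ranges overlapped, while the CPM ranges did not (28.9 to 33.6 against 37.4 to 39.8), and the log2 fold change was 0.31 ± 0.06.

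Among the class IA regulatory subunits, Pik3r1 was the leading transcript and was lower in C57BL/6. Its TPM was 17.5, 18.6 and 17.1 in BALB/c against 13.3, 12.2 and 12.8 in C57BL/6. The ranges were apart on both scales, and the log2 fold change was -0.30 ± 0.04 (SE), or 1.23-fold higher in BALB/c. Pik3r2 was at 2.68 ± 0.0461 TPM (SD, n = 3) and 2.47 ± 0.102 TPM, with a log2 fold change of 0.06 ± 0.10 that did not pass the threshold. Pik3r3 had 8, 6 and 26 reads in BALB/c against 15, 18 and 19 in C57BL/6. These ranges overlapped, S11 stood above the other BALB/c libraries, and the log2 fold change of 0.48 ± 0.45 did not pass the threshold. Without S11 it was 1.27 and passed it.

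**Figure D2:**
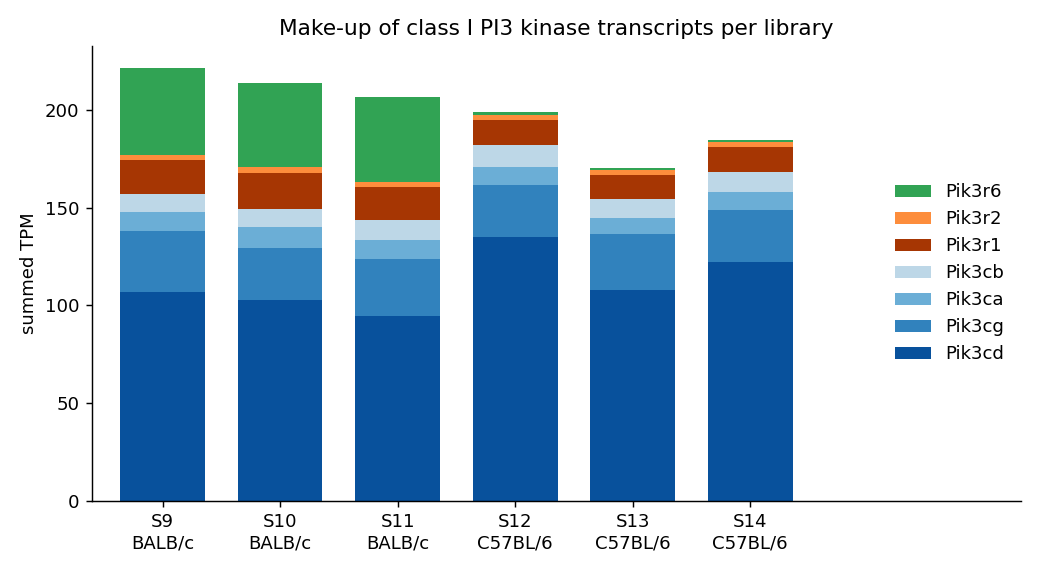
Summed TPM of class I PI3 kinase subunits per library, stacked by gene (Pik3r3 and Pik3r5, both under 0.4 TPM, are left out). The Pik3r6 segment is visible in the 3 BALB/c libraries and nearly absent in the 3 C57BL/6 libraries, where the regulatory share is 8.94% on average against 30.1% in BALB/c.

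Summed over class IA, catalytic transcripts were higher and regulatory transcripts lower in C57BL/6. The catalytic sum of Pik3ca, Pik3cb and Pik3cd was 125.9, 122.6 and 114.8 TPM in BALB/c and 155.2, 126.0 and 141.8 TPM in C57BL/6. The regulatory sum of Pik3r1, Pik3r2 and Pik3r3 was 20.5 ± 0.732 TPM (SD, n = 3) in BALB/c and 15.4 ± 0.405 TPM in C57BL/6. The ratio of the former to the latter was 6.21, 5.74 and 5.76 in BALB/c against 9.87, 8.44 and 9.17 in C57BL/6, without overlap. Over all 9 genes the summed TPM was 214.6 ± 7.45 in BALB/c and 184.8 ± 14.2 in C57BL/6. Regulatory transcripts made up 30.1% ± 0.684 of this sum in BALB/c and 8.94% ± 0.396 in C57BL/6, and Pik3r6 alone was 20.4% of all 9 genes in BALB/c and 0.568% in C57BL/6, and 67.7% of the regulatory sum in BALB/c and 6.37% in C57BL/6.

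All 9 genes passed the filter on low counts and were tested, Pik3r3 mainly through its C57BL/6 libraries and S11. At an adjusted p under 0.05 (quasi-likelihood test in edgeR, adjusted after Benjamini and Hochberg over all genes), 3 were higher in C57BL/6 (Pik3cb, Pik3cd and Pik3cg), beside 27% of all 12461 genes tested. Of these, Pik3cg lost the call with length offsets, plain library size, the TPM scales and without S10 or S13, and Pik3cb on the TPM scales. Another 3 were higher in BALB/c, beside 25.9% of all genes, of which Pik3r5 and Pik3r6 restate the choice of the family and leave Pik3r1. These shares depend on the scaling, since with plain library size 2285 genes were higher in C57BL/6 while 5520 were higher in BALB/c, against 3361 and 3227 with TMM. In either direction these are 6 of 9, beside 52.9%, and the CPM ranges of the strains were apart in 6 of 9, beside 61.9% of all genes. No member was over 2-fold higher in C57BL/6 (7.73% of all genes). The 2 over 2-fold higher in BALB/c were Pik3r5 and Pik3r6, a count set by that choice (5.54% of all genes). The median log2 fold change was 0.06 in the family and -0.01 over all genes, and the median size was 0.31 and 0.24.

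**Figure D3:**
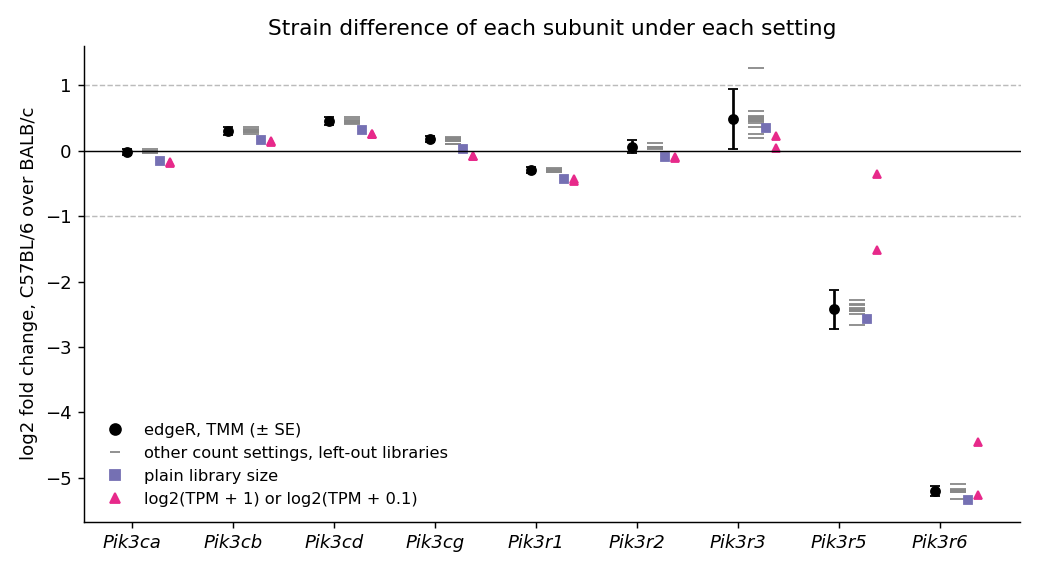
Strain difference of each subunit as a log2 fold change, C57BL/6 over BALB/c, with the edgeR estimate and its SE (black) beside other count settings and left-out libraries (grey), plain library size (purple) and the TPM scales (pink). Dashed lines mark 2-fold. Pik3r6 stays between -5.34 and -4.45 under all settings run, Pik3r5 spreads from -2.67 to -0.35 and Pik3cg crosses 0 on the TPM scales.

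The lower reads of Pik3r6 in C57BL/6 extended over its transcripts. Of 10 annotated transcripts in the tables, 8 held reads, and 7 of the 8 were over 2-fold higher in BALB/c in a fit of all 31918 transcripts tested, beside 2.68% of all transcripts. This restates the gene's difference, and 5 of them, at 0 reads in every C57BL/6 library, passed the filter through BALB/c only. These calls rest on few libraries, since 0 of the 8 passed without S10 or without S11, 2 without S9, 4 without S12 or S13 and 6 without S14, although all 8 kept a negative log2 fold change each time. NM_001081566.2, a transcript of 3238 bases, held 62.7% to 68.8% of the gene's reads in BALB/c. Its reads were 2080, 1733 and 2321 in BALB/c against 77.7, 29.5 and 0 in C57BL/6. NM_001004435.3, of 3226 bases, was at 419.5, 441 and 459 against 18.3, 37.6 and 8.80 reads. The non-coding model NR_126153.1 was at 83.1, 169.1 and 181.0 reads in BALB/c and at 0 in all C57BL/6 libraries. XM_006531948.1, XM_006531950.1, XR_001779856.2 and XR_003949212.1 were also read in BALB/c only. XM_030245460.1 had 70.2 reads in S14 and 0 in S12 and S13, and did not pass the threshold. How Salmon splits so few reads between nearly equal transcripts is uncertain, and the gene's sum is the firmer value.

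**Figure D4:**
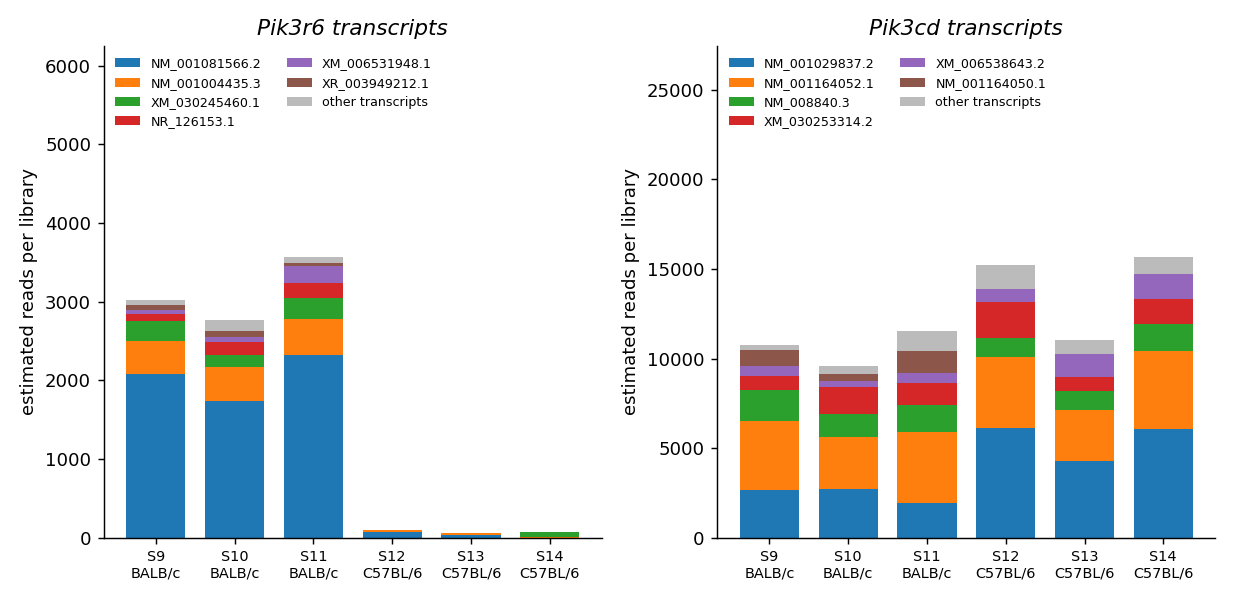
Estimated reads per library, stacked by RefSeq transcript, for Pik3r6 (left) and Pik3cd (right), with the 6 leading transcripts of each gene in colour and the rest in grey. The Pik3r6 bars reach 2762 to 3572 reads in BALB/c and 67 to 96 in C57BL/6, and the Pik3cd bars show a wider NM_001029837.2 segment in C57BL/6.

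Within Pik3cd, the mix of transcripts differed between strains. NM_001029837.2 gave 17.0% to 28.6% of the gene's reads in BALB/c and 38.5% to 40.4% in C57BL/6, with a log2 fold change of 1.17 ± 0.22 (SE) that did not pass the threshold without S9, S12, S13 or S14. NM_001164052.1 gave 29.7% to 35.6% and 25.5% to 27.8%, and NM_008840.3 gave 12.6% to 15.9% and 6.67% to 9.76%. The share of the first was higher in C57BL/6 and the shares of both others were lower there. NM_001164050.1 had 911, 392 and 1203 reads in BALB/c and 0 in all C57BL/6 libraries, and XM_006538651.4 averaged 7.58 reads in BALB/c and 774.0 in C57BL/6. Reads of single transcripts are Salmon's estimates, and those at 0 in a library may be failed estimates.

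Over the whole family, 33 transcripts averaged at least 10 reads and 29 of them were tested. Of these, 3 were over 2-fold higher in C57BL/6, all of Pik3cd, beside 3.64% of all transcripts, and XM_006538651.4 among them, with 0, 0 and 22.7 reads in BALB/c, passed the filter through C57BL/6. None of the 3 passed both thresholds without S9, S13 or S14, and 1 passed without S10, S11 or S12. In the other direction 8 were over 2-fold higher in BALB/c, 7 of Pik3r6 and 1 of Pik3cd, beside 2.68% of all transcripts, and the latter, NM_001164050.1, passed the filter through BALB/c only. This count was 1 without S10 or S11, 3 without S9 and 6 or 7 without a C57BL/6 library. In 21 of the 33, at least 1 library was at 0 reads. Pik3ca and Pik3r2 each had a single transcript, and NM_001077495.2 held at least 98.2% of Pik3r1 reads in every library. In Pik3cg, the predicted model XM_006515112.4 held 52.6% to 59.8% of reads in BALB/c and 46.5% to 51.8% in C57BL/6, and NR_157094.1 held 7.44% to 22.7% and 0% to 9.26%. With curated NM transcripts alone, which leaves out both, Pik3cg took the sixth place in BALB/c and the third in C57BL/6, where Pik3r1 came before it and Pik3ca before Pik3cb. On these NM transcripts Pik3cg was at 5.76, 7.91 and 6.11 TPM in BALB/c against 12.5, 10.02 and 13.3 TPM in C57BL/6, which do not overlap, while the whole-gene ranges do. Pik3r5 reads were assigned to NM_177320.2 in all BALB/c libraries and S12, and to XM_006533548.3 in S13 and S14.

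The genes on either side of the adaptor pair were read next. Stx8, which encodes a syntaxin of endosomes and lies 224956 bases before Pik3r5, was at 25.9, 28.2 and 28.9 CPM in BALB/c and 27.9, 26.1 and 27.9 CPM in C57BL/6. Its log2 fold change of -0.02 ± 0.06 (SE) did not pass the threshold. It passed in 3 of 17 alternatives, those with plain library size (-0.16) and the TPM scales, where the median of all genes lay between -0.18 and -0.15. Ntn1, the netrin-1 gene nearest before Pik3r5, had 0 reads in all 6 libraries. Mfsd6l, a gene of the major facilitator family that begins 3488 bases after Pik3r6, had 57, 51 and 80 reads in BALB/c against 1, 3 and 0 in C57BL/6. Its pooled level was 44.7-fold higher in BALB/c (95% exact interval 17.2 to 165.8, which covers counting error only). The next gene, Ccdc42, had 0 reads throughout. Along this stretch, the 3 adjacent genes Pik3r5, Pik3r6 and Mfsd6l were all lower in C57BL/6. Whether reads that run on from Pik3r6 enter Mfsd6l was not tested.

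**Figure D5:**
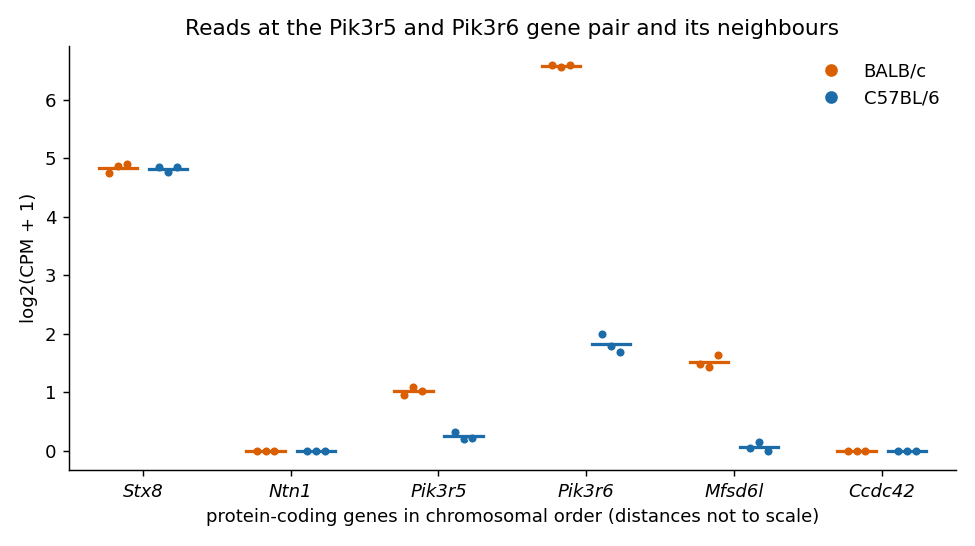
Level of Pik3r5, Pik3r6 and the nearest protein-coding genes on each side, as log2(CPM + 1) per library (points) with the mean of 3 (bars), in chromosomal order and not to scale. The 3 adjacent genes Pik3r5, Pik3r6 and Mfsd6l sit lower in C57BL/6, the CPM ranges of Stx8 overlap, and Ntn1 and Ccdc42 have no reads.

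The genes whose pattern over the 6 libraries was most like that of Pik3r6 were H2-Q2, Trf, Ifi203, Gm14279 and Gm11127. They were ranked by the root mean square difference in log2(CPM + 1), centred per gene, among 9932 genes, and it was 0.106 for H2-Q2 and 0.129 for Trf. The 1 added to CPM compresses differences of genes near 0 in a strain. By log2 fold change only Trf, at -4.85, was near the -5.20 of Pik3r6. H2-Q2 was at -12.6, Ifi203 at -9.53, Gm14279 at -7.84 and Gm11127 at -8.11. Trf, the transferrin gene, averaged 449.0 CPM in BALB/c against 15.5 CPM in C57BL/6. H2-Q2, an MHC class I gene, was at 24.0 CPM and at 0 reads, and MHC genes share sequence and differ between strains, so its value is uncertain. For Pik3cg the nearest were Stxbp3 (0.0107), Capza1 (0.0129), Mgat4a, Zfyve26 and Tnks, each slightly higher in C57BL/6.

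The rest of the PI3 kinase pathway was described by 7 lists of genes, in which 131 of 152 genes were tested. At an adjusted p under 0.05 in the same edgeR fit, 55 were higher in C57BL/6, 21 were higher in BALB/c and 55 did not pass. Thus 58.0% passed, beside 52.9% of all genes. Over 2-fold, 14 were higher in C57BL/6, against 4 in BALB/c, beside 7.73% and 5.54% of all genes. Among the 14, C5ar1, S1pr1 and Prex1 passed the filter on low counts through C57BL/6 only, so nothing is read from their direction. Over the 131 tested genes the median log2 fold change was 0.06. With plain library size in place of TMM scaling, 33 were higher in C57BL/6, against 48 in BALB/c, so the balance of directions depended on the scaling.

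Of receptors and adaptors that feed class IA enzymes, 17 of 25 tested were higher in C57BL/6, against 0 in BALB/c, beside 27% and 25.9% of all genes. Of these 17, Kit, Fcer1a, Ms4a2, Fcer1g, Csf2rb, Syk, Gab2, Sos1 and Sos2 had overlapping TPM ranges. Their log2 fold changes ran from 0.13 (Fcer1a) to 0.39 (Sos1). Il1rl1, Lat2, Grb2, Gab1, Cblb and Ptpn11, which did not pass, lay below BALB/c in TPM. The one-sided count thus depended on the scale, and with plain library size the median of all genes lay at -0.15. Pik3ap1 (BCAP, an adaptor that binds p85) rose from 12.6 to 53.8 CPM, with a log2 fold change of 2.08 ± 0.17 (SE). Irs2, the insulin receptor substrate that recruits p85, rose by 1.87 ± 0.15, and Fyn, a Src family kinase below the IgE receptor, by 1.08 ± 0.18.

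Upstream of class IB, 20 of 26 G protein-coupled receptors were tested, 11 were higher in C57BL/6, against 2 in BALB/c (27% and 25.9% of all genes), and 8 were over 2-fold higher in C57BL/6. In this list 65% of tested genes passed in either direction, beside 52.9% of all genes, and the share of all genes over 2-fold higher in C57BL/6 was 7.73%. The adenosine receptors Adora2b and Adora2a had log2 fold changes of 1.45 ± 0.07 (SE) and 1.02 ± 0.18. The anaphylatoxin receptor C3ar1 had 1.67 ± 0.10, and the chemokine receptors Ccr1 and Ccr2 had 1.09 ± 0.11 and 1.31 ± 0.19. Hrh2, a histamine receptor, was at 13, 2 and 30 reads in BALB/c against 338, 332 and 475 in C57BL/6. The C5a receptor gene C5ar1 had 0 reads in BALB/c against 22, 17 and 21 in C57BL/6, at least 6.95-fold higher against a floor of 3 reads per library. S1pr1, a sphingosine-1-phosphate receptor, had 2, 0 and 2 reads against 39, 24 and 31, a pooled ratio of 24.7 (95% exact interval 9.33 to 92.5). C5ar1 and S1pr1, which are among the 8, passed the filter on low counts through C57BL/6 only, so nothing is read from their direction. Adora3, the adenosine receptor tied to p110γ in mouse mast cells, had a log2 fold change of 0.12 and did not pass the threshold. Some genes of the basophil and macrophage lists were also higher in C57BL/6, and their part in these receptors was not tested.

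Among G protein and Ras genes, 6 of 22 tested were higher in C57BL/6, against 8 in BALB/c, beside 27% and 25.9% of all genes. Rras2, a Ras relative, was at 11.7 CPM in BALB/c against 0.753 CPM in C57BL/6, with a log2 fold change of -3.95 ± 0.18 (SE). Rasgrp1, an exchange factor for Ras, had -1.15 ± 0.06, and Gnai1, an inhibitory Gα subunit, had 1.39 ± 0.13. Rasgrp4, another exchange factor, was higher in C57BL/6 at 0.66, and Nras did not pass the threshold, so the list had no single direction.

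Of 15 tested phosphatases and inhibitors that act on the lipid products or the kinase, 5 were higher in C57BL/6, 5 were higher in BALB/c and none passed 2-fold, and for all genes the shares were 27% and 25.9%. Inpp4b, which removes a phosphate from PI(3,4)P2, had a log2 fold change of 0.63 ± 0.04 (SE), and the inositol 5-phosphatase Synj2 had 0.51 ± 0.05. Inpp5d (SHIP1), which acts on PIP3, had -0.03 and did not pass the threshold.

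Of 25 tested PIP3 effectors, 10 were higher in C57BL/6, against 4 in BALB/c, so that 56% passed beside 52.9% of all genes. Sgk1, a kinase activated through PDK1, had a log2 fold change of 2.09 ± 0.28 (SE). Prex1, a Rac exchange factor that binds both PIP3 and Gβγ, had 6, 1 and 6 reads in BALB/c against 21, 18 and 19 in C57BL/6. It passed the filter on low counts through C57BL/6 only. Plcg1, a phospholipase C, was at 176 CPM in BALB/c against 80.1 CPM in C57BL/6, with a log2 fold change of -1.13 ± 0.04. In the mTOR, FoxO and GSK3 list, 15 of 21 tested did not pass and 28.6% did, beside 52.9% of all genes, and the FoxO targets Cdkn1b and Bcl2l11 had -0.77 ± 0.06 and 0.71 ± 0.08. Among other PI3 kinase genes, the class II enzyme Pik3c2a had -0.78 ± 0.07. Pik3c3, the class III enzyme VPS34, had 0.54 ± 0.08, but its TPM ranges overlapped and on the log2(TPM + 1) scale it was at 0.05 and lost the call, which it kept in 15 of 17 alternatives.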

How the data were processed

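BMMC RNA of 6 libraries was prepared by the authors with a strand-specific mRNA kit and sequenced as paired reads. Per the labels, reads were checked with FastQC 0.11.5 and quantified with Salmon 0.8.2 on GRCm39. The deposited tables hold, per RefSeq transcript, an estimated count of reads, the deposited TPM and transcript lengths. The methods name Ensembl transcripts, whereas the tables list RefSeq names.

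Transcripts were matched to symbols without version by a RefSeq gene table of GRCm38.p6 (106440 of 129698 matched; the unmatched held 2.69% to 3.12% of reads and entered no test). Estimated counts were summed per gene and rounded. Genes were filtered (filterByExpr, minimum count 10), scaled by TMM and tested in edgeR 4.0.16 (R 4.3.3) by the quasi-likelihood test with strain as the only term, 3 libraries against 3, with Benjamini-Hochberg adjustment over 12461 genes. The threshold was an adjusted p under 0.05, with 2-fold as a second one. The biological coefficient of variation was 0.0665. P-values measure the spread between these cultures. SE was derived from the F statistic. Gene models come from GENCODE vM39.

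The members and lists were chosen with earlier results of these data known. Named were all members, their transcripts averaging 10 reads, list genes past both thresholds (or the 2 smallest p), 2 protein-coding genes on each side of the Pik3r5 and Pik3r6 pair, and the 5 genes most like Pik3r6 and Pik3cg. Other genes named from the lists (Adora3, Inpp5d, Rasgrp4 and Nras) were picked after their values were seen. Some genes that the rule names are not reported here. DESeq2 1.42.0, limma 3.58.1 (on TPM in log2 form, with 1 or 0.1 added), other scalings, length offsets, filters and left-out libraries were alternatives.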

Additional observations from a re-analysis of the deposited data

How the results depend on the processing

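The call and direction of Pik3r6 (-5.34 to -4.45), Pik3cd (0.26 to 0.51), Pik3r1 (-0.47 to -0.26) and Pik3r5 (-2.67 to -0.35) were the same at the adjusted p under every alternative in which each could be tested, but with log2(TPM + 1) Pik3r5, at -0.35, was no longer over 2-fold. Plain library size and the TPM scales moved the median of all genes to between -0.18 and -0.15. There, Pik3ca passed the threshold at -0.16 with plain library size, -0.17 with log2(TPM + 1) and -0.19 with log2(TPM + 0.1). Pik3cb lost the call at 0.13 and 0.14 on the TPM scales. Pik3cg reversed to -0.08 and -0.08 on the TPM scales and lost the call at 0.03 with plain library size and at 0.10 and 0.10 with length offsets in DESeq2 and edgeR. Without a library, Pik3cg ranged from 0.14 to 0.21 and lost the call without S10 or S13, and Pik3r3 ranged from 0.20 to 1.27 and gained it without S11. Genes over 2-fold higher in C57BL/6 numbered 613 with 10 counts in every library and 434 with log2(TPM + 1), and in BALB/c 404 and 365. Genes past the adjusted p in C57BL/6 numbered 2029 with log2(TPM + 0.1) and 2035 with log2(TPM + 1), and in BALB/c 5830 and 5834, and 5520 with plain library size. The share of Pik3r6 in both adaptors was 98.9% and 99.0% in BALB/c, against 93.2% and 98.1% in C57BL/6, from estimated reads and from NM transcripts, and its share of all 9 subunits in BALB/c was 21.6% from NM transcripts, against 20.4%. From NM transcripts the share of Pik3cg in all 9 subunits was 4.12% in BALB/c and 8.96% in C57BL/6, against 13.5% and 14.9%, and in the catalytic sum 6.32% and 10.2%. The mean ratio of adaptors to Pik3cg was 5.44 in BALB/c and 0.0711 in C57BL/6 from NM transcripts. In the pathway lists plain library size gave 33 and 48. The cause of these shifts was not tested. Pik3r3 and Pik3r5, with under 40 reads per library, could not be tested with 10 counts in every library. No paired analysis was possible because the strains share no replicate numbers.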
